A study of Mus musculus with 6 samples.

Results

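Platelet-derived growth factors (PDGFs) and their receptors were measured in whole fetal mouse lung at E18.5, as the 6 genes *Pdgfra*, *Pdgfrb*, *Pdgfa*, *Pdgfb*, *Pdgfc* and *Pdgfd* among 19938 genes with an array value. The genes were chosen by name, each had 1 probe set annotated to a single gene symbol, and all 6 were measured. RNA came from 3 *Tnrc6a* null lungs, in which both alleles carry a germline gene trap that places β-galactosidase within *Tnrc6a* (GW182gt/gt), and from 3 lungs of WT littermates, all on a C57Bl/6 background and each from a single embryo. *Tnrc6a* encodes a partner of the Argonaute proteins in miRNA silencing, and the arrays address which mRNAs differ in lungs that lack it. The authors deposited 1 value for each probe set and lung on a log scale. The labels give the base as 2. An earlier report on these data matched folds printed with the study to natural logarithms instead, a comparison that was not repeated here and whose values are not shown. The values alone do not settle the base, so each difference below is *Tnrc6a* null minus WT in the deposited log unit and is not turned into a fold. Levels of different probe sets are not comparable, so each gene was compared only with itself across lungs.

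PDGFs are dimeric ligands of paired receptor tyrosine kinases. In the developing lung PDGF-A, made largely by epithelium, acts through PDGFRA on mesenchymal cells that become alveolar myofibroblasts and deposit elastin. PDGF-B, made by endothelium, acts through PDGFRB to recruit pericytes and vascular smooth muscle cells. PDGF-C and PDGF-D carry a CUB domain that must be cut off before they bind, PDGF-C mainly to PDGFRA and PDGF-D mainly to PDGFRB.

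The receptors bear on the miRNA pathway because, in human lung cancer cells, miR-34a and miR-34c have been reported to lower both of them. The mature mouse miRNAs of the miR-34 and miR-449 family are shown because they share 1 seed, the stretch that pairs with target mRNAs. Sequences of 4 mature miRNAs of the family are given from RefSeq (GRCm38.p6), and its other members are not shown. Capitals mark the seed, bases 2 to 8 from the 5′ end.
miR-34a-5p: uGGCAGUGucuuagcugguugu
miR-34b-5p: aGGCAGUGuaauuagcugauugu
miR-449a-5p: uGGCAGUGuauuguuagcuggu
miR-449c-5p: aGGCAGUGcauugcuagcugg
miR-34a-5p lies at chr4:150068473-150068494 on the plus strand, miR-34b-5p at chr9:51103610-51103632 on the minus strand, and miR-449a-5p and miR-449c-5p at chr13:113037549-113037570 and chr13:113036008-113036028 on the plus strand. On the arrays the precursor gene *Mir34a* stood at 3.34, 3.31 and 3.24 in *Tnrc6a* null lungs, against 3.28, 2.98 and 3.26 in WT lungs. *Mir449a* stood at 4.16, 4.26 and 4.66 in *Tnrc6a* null lungs, against 3.99 to 4.38 in WT lungs. The genotypes overlapped for both, and the differences of 0.12 and 0.24 were not called (adjusted p = 0.933 and 0.898 from limma over all genes). By mean signal, *Mir34a* and *Mir449a* stood at percentiles 10.2 and 27.9 of all genes. The 500 genes nearest to each in signal had median differences of 0.137 and 0.047. Whether the PDGF receptor mRNAs carry sites for this seed in these mice was not analysed here.

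*Tnrc6a* itself stood at 5.45, 5.04 and 5.40 in *Tnrc6a* null lungs, against 7.38, 7.13 and 7.18 in WT lungs (difference -1.93, adjusted p = 0.00312 from limma). The lung epithelial genes *Sftpc* and *Nkx2-1* were present in every lung, *Sftpc* at 11.66 to 11.82 in *Tnrc6a* null lungs and 11.64 to 11.82 in WT lungs, and *Nkx2-1* at a mean of 8.35 in *Tnrc6a* null lungs and 8.43 in WT lungs. Array medians were 5.01 to 5.03 in *Tnrc6a* null lungs and 4.98 to 4.99 in WT lungs, so every *Tnrc6a* null array lay slightly above every WT array. Across genes, *Tnrc6a* null replicate 3 and WT replicate 1 correlated at 0.992, above the correlation of either with any lung of its own genotype (0.979 to 0.988). *Tnrc6a* null replicate 2 and WT replicate 2 also correlated at 0.992, above *Tnrc6a* null replicate 2 with its own genotype (0.983 and 0.99) but below WT replicate 2 with WT replicate 3 (0.993). No label ties any of these lungs together. Results are also given without *Tnrc6a* null replicate 3 and WT replicate 1, called the similar lungs below, or with both as a block. Both alternatives were chosen with the resemblance already known.

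Expression of the PDGF genes was lower on average in *Tnrc6a* null lungs for 5 of 6 genes and higher for *Pdgfc*, and no PDGF gene was called. The differences ran from -0.27 for *Pdgfrb* to 0.09 for *Pdgfc*, with a median of -0.197, beside a median of 0.00 over all 19938 genes. At an adjusted p under 0.05, 0 of 6 were called with limma, beside 0.00502% of all genes, which was *Tnrc6a* alone. The methods' t-test called 0 of all genes after Benjamini-Hochberg adjustment, *Tnrc6a* included (adjusted p = 0.551), and so says nothing about the PDGF genes. At an unadjusted p under 0.05 in either direction, limma counted 1 of 6, *Pdgfrb*, beside 5.42% of all genes. For that gene alone the genotypes did not overlap, beside 10.2% of all genes in either direction, 5.51% with the *Tnrc6a* null lungs wholly below and 4.67% with them wholly above. Of all genes, 49.8% were lower on average and 49.2% higher. Of the 1081 genes at an unadjusted p under 0.05, 54.7% were lower. The share was 77.2% of the 1380 genes that passed after each array was centred on its median, and 37.6% of the 974 that passed when the spread was fitted without a trend on signal. Each PDGF gene is therefore also set beside the 500 genes nearest to it in mean signal, whose median differences ran from -0.067 to -0.033. In bulk tissue, fewer cells of a type and less RNA per cell cannot be told apart.

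**Figure D1:**
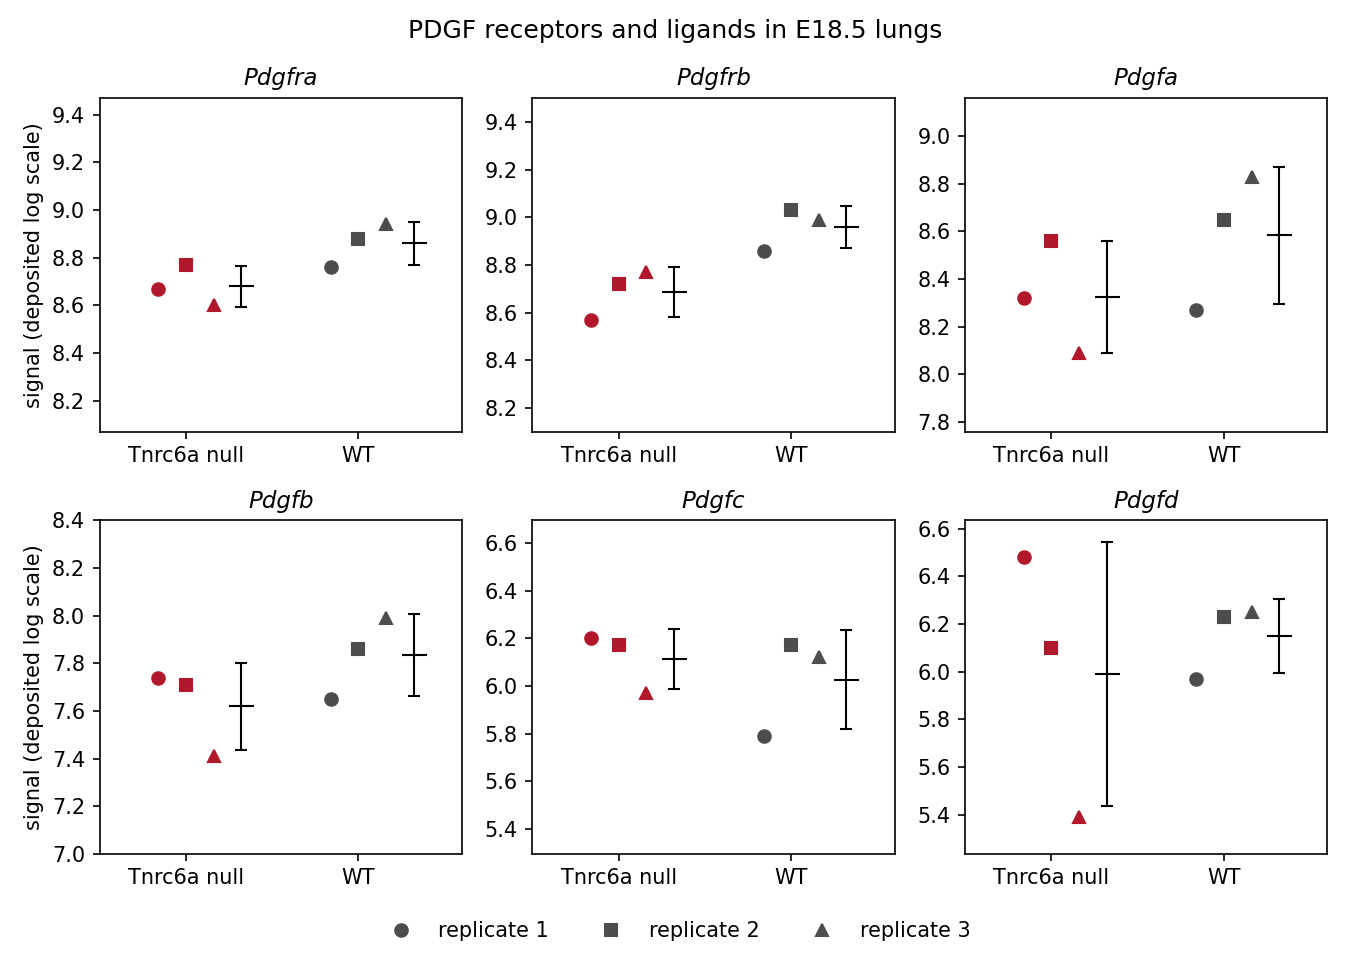
Array signal of the 6 PDGF genes in each E18.5 lung. The vertical axes are the signal on the deposited log scale and each spans the same width, each point is 1 lung with its shape giving the replicate number, and bars show mean and SD (n = 3). Only for *Pdgfrb* do all *Tnrc6a* null lungs (8.57 to 8.77) lie below all WT lungs (8.86 to 9.03), and the widest spread is that of *Pdgfd* in the *Tnrc6a* null lungs (5.39 to 6.48).

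*Pdgfrb*, the receptor of pericytes and vascular smooth muscle cells, stood at 8.57, 8.72 and 8.77 in *Tnrc6a* null lungs, against 8.86, 9.03 and 8.99 in WT lungs. All 3 *Tnrc6a* null lungs were below the lowest WT lung, WT replicate 1. The means were 8.69 ± 0.10 in *Tnrc6a* null lungs and 8.96 ± 0.09 in WT lungs (SD, n = 3 each). The difference of -0.27 had a standard error of 0.083 and a 95% interval of -0.46 to -0.08. It ranked 172 of 19938 by p and did not pass over all genes (unadjusted p = 0.00992, adjusted p = 0.89 from limma). The 500 genes of like signal had a median difference of -0.065, which leaves -0.21 for *Pdgfrb* relative to them. Leaving out 1 lung gave -0.323 to -0.215. Without both *Tnrc6a* null replicate 3 and WT replicate 1 the difference was -0.365, with an adjusted p of 0.0864 from limma on the 4 lungs left, and with both as a block the adjusted p was 0.109. Over 17 alternatives the unadjusted p stayed under 0.05 in 17 and the adjusted p ran from 0.0864 to 0.999.

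*Pdgfra*, the receptor of alveolar myofibroblast progenitors and other lung fibroblasts, stood at 8.67, 8.77 and 8.60 in *Tnrc6a* null lungs, against 8.76, 8.88 and 8.94 in WT lungs. The genotypes overlapped by a single pair of lungs, *Tnrc6a* null replicate 2 at 8.77 and WT replicate 1 at 8.76. The means were 8.68 ± 0.09 in *Tnrc6a* null lungs and 8.86 ± 0.09 in WT lungs (SD, n = 3 each). Its difference of -0.18 had a 95% interval of -0.36 to 0.003 (unadjusted p = 0.0531, adjusted p = 0.89 from limma). Genes of like signal had a median difference of -0.06, which leaves -0.12 for *Pdgfra*. The difference was -0.23 without WT replicate 1 and -0.14 without *Tnrc6a* null replicate 3 or without WT replicate 3, and the adjusted p was 0.157 with the similar lungs as a block. Whether the receptors differed from each other in their response was not tested.

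**Figure D2:**
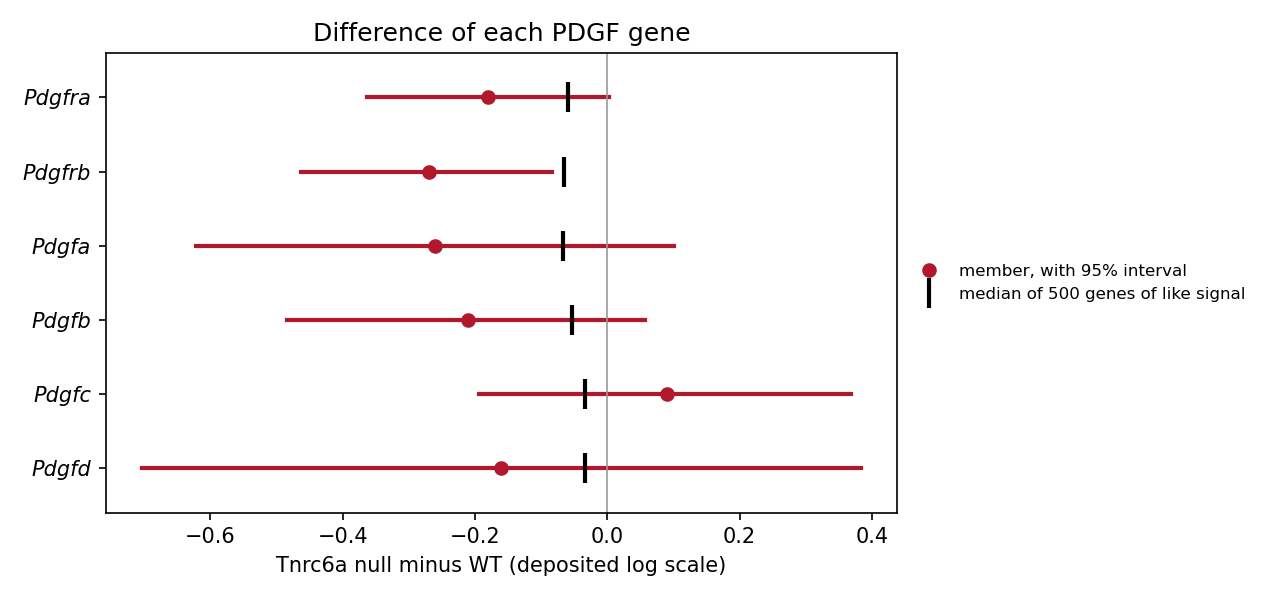
Difference of each PDGF gene (horizontal axis, *Tnrc6a* null minus WT in the deposited log unit). Points are limma estimates with 95% intervals from 3 lungs per genotype, and the black ticks are the median differences of the 500 genes nearest in signal. The interval of *Pdgfrb* (-0.46 to -0.08) is the one that leaves out 0, and those of the other 5 genes include it.

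*Pdgfa*, the epithelial ligand of PDGFRA, varied widely within each genotype. It stood at 8.32, 8.56 and 8.09 in *Tnrc6a* null lungs, against 8.27, 8.65 and 8.83 in WT lungs. WT replicate 1 was lower than 2 of the 3 *Tnrc6a* null lungs, so the genotypes overlapped. The means were 8.32 ± 0.24 in *Tnrc6a* null lungs and 8.58 ± 0.29 in WT lungs (SD, n = 3 each). The difference of -0.26 was of the size of these SDs, with a 95% interval of -0.62 to 0.10 (adjusted p = 0.896 from limma). It was -0.417 without WT replicate 1, -0.143 without *Tnrc6a* null replicate 3 and -0.137 without WT replicate 3, and none of these was called. On the 4 lungs left without both similar lungs it was -0.30 (unadjusted p = 0.00866, adjusted p = 0.181 from limma).

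*Pdgfc*, the CUB domain ligand of PDGFRA, was the one PDGF gene with a higher mean in *Tnrc6a* null lungs. It stood at 6.20, 6.17 and 5.97 in *Tnrc6a* null lungs, against 5.79, 6.17 and 6.12 in WT lungs. The lowest value was WT replicate 1, and the other 5 lungs lay between 5.97 and 6.20. Its difference of 0.09 had a 95% interval of -0.19 to 0.37 (adjusted p = 0.94 from limma) and turned to -0.032 without WT replicate 1.

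*Pdgfb*, the endothelial ligand of PDGFRB, stood at 7.74, 7.71 and 7.41 in *Tnrc6a* null lungs, against 7.65, 7.86 and 7.99 in WT lungs. *Tnrc6a* null replicate 3 was the lowest lung, and WT replicate 1 lay below the other 2 *Tnrc6a* null lungs. The difference of -0.21 had a 95% interval of -0.48 to 0.06 (adjusted p = 0.89 from limma), with means of 7.62 ± 0.18 in *Tnrc6a* null lungs and 7.83 ± 0.17 in WT lungs (SD, n = 3 each). It was -0.108 without *Tnrc6a* null replicate 3 and -0.305 without WT replicate 1. The adjusted p ran from 0.134 to 0.999 over the 17 alternatives.

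*Pdgfd*, the CUB domain ligand of PDGFRB, stood at 6.48, 6.10 and 5.39 in *Tnrc6a* null lungs, against 5.97, 6.23 and 6.25 in WT lungs. *Tnrc6a* null lungs held both the highest and the lowest of the 6 values and spanned 1.09, whereas WT lungs spanned 0.28. The difference of -0.16 lay within that spread (95% interval -0.70 to 0.38, adjusted p = 0.944 from limma). Its sign rested on 1 lung: the difference was 0.14 without *Tnrc6a* null replicate 3 and -0.405 without *Tnrc6a* null replicate 1.

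**Figure D3:**
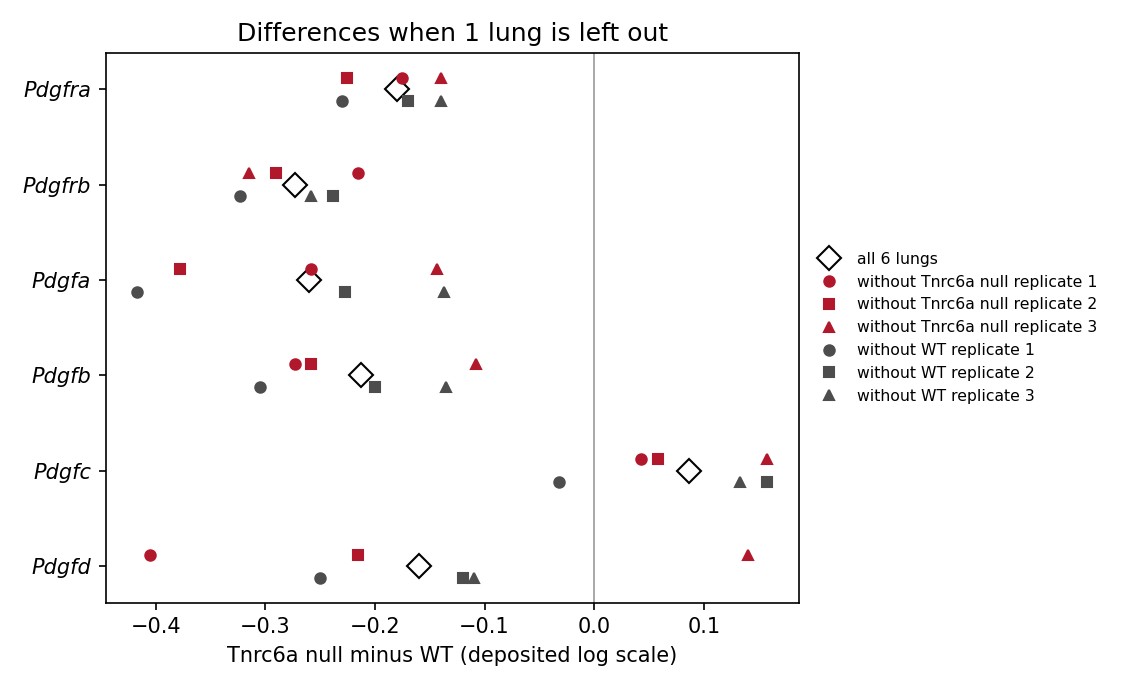
Differences of the 6 PDGF genes with all 6 lungs (open diamonds) and with each lung left out in turn. The horizontal axis is *Tnrc6a* null minus WT in the deposited log unit. The receptors stay between -0.323 and -0.14, whereas *Pdgfc* and *Pdgfd* lie on both sides of 0, *Pdgfd* from -0.405 to 0.14.

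Set against the mean of the 6 lungs, *Pdgfra*, *Pdgfa*, *Pdgfb* and *Pdgfd* had their lowest value in *Tnrc6a* null replicate 3, at -0.17, -0.36, -0.32 and -0.68. For *Pdgfrb* the lowest was *Tnrc6a* null replicate 1, at -0.25, and *Tnrc6a* null replicate 3 lay at -0.05. WT replicate 3 was the highest lung for *Pdgfra*, *Pdgfa* and *Pdgfb*, at 0.17, 0.38 and 0.26. Likeness between genes was measured as the root mean square difference of these deviations over the 6 lungs, which share the arrays and the genotypes. The genes most like *Pdgfrb* were *Reck*, *Ajuba* and *Erbb2*, at 0.0229, 0.0248 and 0.0324, beside a root mean square deviation of 0.158 for *Pdgfrb* itself. *Reck* stood at 7.73, 7.90 and 7.95 in *Tnrc6a* null lungs, against 7.99, 8.18 and 8.19 in WT lungs. Most like *Pdgfra* were *Fat1*, *Myo1d* and *Lyg2* (0.0134 to 0.0167), and most like *Pdgfa* were *Ramp1*, *Ptk2b* and *Gm8995* (0.0146 to 0.0382). For *Pdgfb* they were *Gdap2*, *Msrb3* and *Foxo1* (0.0267 to 0.0325), for *Pdgfc* *1700125H20Rik*, *St8sia6* and *Lactb* (0.0213 to 0.0273) and for *Pdgfd* *Sptssa*, *Klrb1f* and *Samd5* (0.071 to 0.0853). Among the PDGF genes, *Pdgfb* and *Pdgfra* were the closest pair at 0.0898. Among all genes, *Pdgfra* ranked 611 in likeness to *Pdgfb*, and *Pdgfb* ranked 1906 in likeness to *Pdgfra*.

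Cells that make and receive PDGF were followed through their markers, and no marker was called over all genes. Of 12 pericyte markers, 10 were lower on average and 2 higher, with a median difference of -0.167. At an unadjusted p under 0.05, 2 were lower and 0 higher, beside 2.96% lower and 2.46% higher of all genes. *Gucy1a1*, a subunit of the nitric oxide receptor, stood at 7.69, 7.89 and 7.88 in *Tnrc6a* null lungs, against 8.13, 8.10 and 8.16 in WT lungs (difference -0.31, adjusted p = 0.89 from limma). *Notch3*, a Notch receptor of mural cells, had a difference of -0.24. *Cspg4*, which encodes the pericyte proteoglycan NG2, stood at 6.94 to 6.96 in *Tnrc6a* null lungs and at 7.03 to 7.13 in WT lungs (difference -0.12, adjusted p = 0.897). *Ndufa4l2* was higher on average by 0.28 (adjusted p = 0.89), at 6.89 to 7.06 in *Tnrc6a* null lungs and 6.41 to 6.87 in WT lungs. The mean level of the pericyte list was 6.92 to 7.05 in *Tnrc6a* null lungs and 7.01 to 7.20 in WT lungs, and its part in the *Pdgfrb* difference was not tested.

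Fibroblast lists, the cells of *Pdgfra*, were also lower on average. All 7 alveolar myofibroblast markers were lower (median -0.09), 2 of them at an unadjusted p under 0.05, beside 49.8% and 2.96% of all genes. *Eln*, which encodes elastin, stood at 10.03, 10.02 and 10.05 in *Tnrc6a* null lungs, against 10.34, 10.18 and 10.35 in WT lungs (difference -0.26, adjusted p = 0.89 from limma). *Hhip*, a Hedgehog inhibitor, had a difference of -0.28. It stood at 9.48, 9.05 and 9.07 in WT lungs, and its difference was -0.143 without WT replicate 1. Of 7 markers of lipofibroblasts and matrix fibroblasts, 6 were lower with a median of -0.06, and *Tcf21*, a mesenchymal transcription factor, had a difference of -0.22. The mean level of the alveolar myofibroblast list was 7.68 to 7.84 in *Tnrc6a* null lungs and 7.80 to 8.02 in WT lungs. That of the lipofibroblast list was 8.10 to 8.17 in *Tnrc6a* null lungs and 8.17 to 8.24 in WT lungs. Relative to genes of like signal the medians of these lists were -0.047 and 0.00, beside -0.128 for pericytes. Smooth muscle markers were mixed, with 6 of 10 lower, and 0 at an unadjusted p under 0.05 in either direction. *Acta2*, counted here and not on the myofibroblast list, had a difference of 0.05. It stood at 9.47, 9.45 and 9.82 in *Tnrc6a* null lungs, against 9.75, 9.42 and 9.43 in WT lungs.

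Endothelial markers, the source of *Pdgfb*, were lower in 13 of 17 cases, beside 49.8% of all genes, with a median of -0.117 and of -0.052 relative to genes of like signal. At an unadjusted p under 0.05, 4 of 17 were lower and 0 higher, beside 2.96% and 2.46% of all genes. *Cdh5*, the endothelial cadherin gene, stood at 9.98, 10.09 and 9.92 in *Tnrc6a* null lungs, against 10.24, 10.25 and 10.19 in WT lungs (difference -0.23, adjusted p = 0.89 from limma). In deviation from the mean of the 6 lungs, the endothelial list stood at -0.024, 0.014 and -0.144 in *Tnrc6a* null lungs, against -0.103, 0.125 and 0.131 in WT lungs. *Pdgfb* stood at 0.01, -0.02 and -0.32 in *Tnrc6a* null lungs, against -0.08, 0.13 and 0.26 in WT lungs. Both *Pdgfb* and the endothelial list were lowest in *Tnrc6a* null replicate 3 and highest in WT replicate 3. The same held for *Pdgfra*, *Pdgfa* and the macrophage list, so this pattern was not particular to endothelial markers. Of 11 epithelial markers, the cells that make *Pdgfa*, 4 were lower and 7 higher (median 0.027). The mean of the list lay between -0.033 and 0.047 in all 6 lungs, and *Pdgfa* ran from -0.36 to 0.38. A mean over 11 genes tends to vary less than a single gene, so these ranges are not comparable. *Elf3*, an epithelial transcription factor, was the one epithelial marker higher at an unadjusted p under 0.05, at 0.21. Among other cells that can hold PDGF or lie near its receptors, 10 of 10 macrophage markers were lower (median -0.203), beside 49.8% of all genes. Of these, 2 were at an unadjusted p under 0.05, beside 2.96% of all genes lower at that threshold. These were *Mrc1* at -0.42 and *Adgre1* at -0.51, both with an adjusted p of 0.89 from limma. In deviation, the macrophage list stood at 0.063, 0.007 and -0.406 in *Tnrc6a* null lungs, against -0.224, 0.278 and 0.28 in WT lungs. Its genes *Lyz2* and *Ctss* changed sign without *Tnrc6a* null replicate 3. Of the 5 megakaryocyte and platelet markers measured, 2 were lower and 3 higher, of which *Treml1* stood at 0.31 (limma, unadjusted p = 0.0449, adjusted p = 0.89). Their level was 5.98 to 6.28 in *Tnrc6a* null lungs and 5.78 to 6.34 in WT lungs. The part of these cell types in the PDGF differences was not tested.

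**Figure D4:**
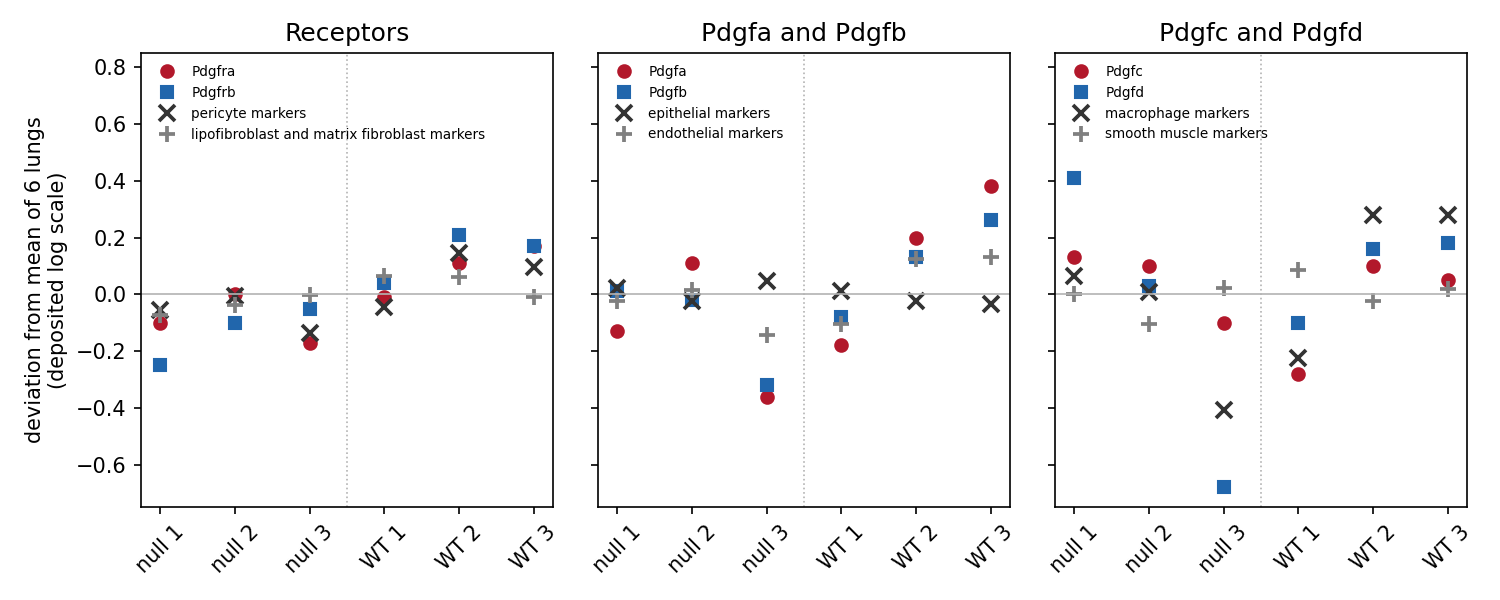
PDGF genes (filled symbols) beside the mean of marker lists (crosses) in each lung. A mean over a list tends to vary less than a single gene. Values on the vertical axis are deviations from each gene's or list's 6-lung mean, in the deposited log unit, and the dotted line parts the *Tnrc6a* null lungs from the WT lungs. *Pdgfa* and *Pdgfb* lie at -0.36 and -0.32 in *Tnrc6a* null replicate 3, where the endothelial list lies at -0.144 and the epithelial list at 0.047, and the symbols of the receptors coincide in WT replicate 3 at 0.17.

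Genes that act with the PDGF receptors were followed from the ligand to the nucleus, and 0 were called over all genes. Of 10 measured genes of ligand processing and co-factors, 7 were lower and 3 higher, with a median of -0.06. *Furin*, the protease that matures PDGF-A and PDGF-B, stood at 7.62, 7.68 and 7.46 in *Tnrc6a* null lungs, against 7.66, 7.85 and 7.86 in WT lungs (difference -0.20, adjusted p = 0.89 from limma). *Plat*, which encodes tissue plasminogen activator and frees PDGF-C from its CUB domain, had a difference of -0.24 and a standard error of 0.155. *Nrp1*, a co-receptor gene, stood at 8.54, 8.67 and 8.55 in *Tnrc6a* null lungs, against 8.74, 8.78 and 8.80 in WT lungs, and was the 1 gene of this list at an unadjusted p under 0.05, beside 5.42% of all genes. For *Plau*, whose product frees PDGF-D, the difference was -0.03.

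Of 24 measured genes of receptor signal transduction, 21 were lower and 3 higher, with a median of -0.088 and of -0.035 relative to genes of like signal. At an unadjusted p under 0.05, 2 were lower and 0 higher, beside 2.96% and 2.46% of all genes. *Stat3*, a transcription factor activated by receptor kinases, stood at 8.23, 8.26 and 8.11 in *Tnrc6a* null lungs, against 8.44, 8.46 and 8.37 in WT lungs (difference -0.22, adjusted p = 0.89 from limma). The other was *Pik3ca*, the catalytic subunit of phosphoinositide 3-kinase, at -0.18. *Akt1*, the kinase downstream of it, stood at -0.16. All 11 genes that attenuate receptor signals were lower on average, beside 49.8% of all genes, with a median of -0.103 and of -0.053 relative to genes of like signal. They ran from -0.30 for the tyrosine phosphatase gene *Ptpn1*, the 1 at an unadjusted p under 0.05, to 0.00. *Spry4*, an inhibitor of receptor kinase signalling that such signalling induces, had a difference of -0.19. The immediate early genes that growth factors induce were split, with 7 lower and 8 higher (median 0.01). *Mcl1*, a survival gene, was lower at an unadjusted p under 0.05 (-0.23, adjusted p = 0.89), *Myc* stood at 0.19, *Fos* at -0.07 and *Egr1* at 0.18.

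Relatives of the PDGF genes showed no call either. Of 12 related receptors and ligands of the PDGF and VEGF families, 8 were lower and 4 higher (median -0.072), with 0 at an unadjusted p under 0.05. In the RefSeq annotation *Pdgfra* lies next to *Kit* and *Pdgfrb* next to *Csf1r*, both of them kinase genes of the same class. *Kit* stood at 7.87, 7.84 and 7.06 in *Tnrc6a* null lungs, against 7.42, 7.89 and 7.92 in WT lungs. *Csf1r*, a macrophage receptor, stood at 6.54, 6.51 and 6.22 in *Tnrc6a* null lungs, against 6.33, 6.80 and 6.77 in WT lungs. Their differences of -0.15 and -0.21 lay within the spread of the lungs, and both were low in *Tnrc6a* null replicate 3 and WT replicate 1. *Flt4*, the receptor of lymphatic endothelium, had a difference of -0.28 (unadjusted p = 0.0661, adjusted p = 0.89 from limma). *Pdgfrl*, a receptor-like gene with no kinase domain, stood at -0.20 with a standard error of 0.168.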

How the data were processed

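RNA of 6 E18.5 lungs, grouped by the genotype in their labels, was hybridised to Affymetrix mouse gene arrays of the whole-transcript type. The authors deposited 1 value per probe set on a scale that the labels call log2, and their processing notes name MAS5, with version, settings and any further normalization not given in the sources used here. Scanner files were not analysed here, and background levels are unknown. With 3 arrays per genotype precision is limited, and p-values weigh each difference against the spread between single embryos. In the main fit, the spread of each gene was drawn toward a trend on signal over all genes. Of 35045 probe sets, 21789 had 1 gene symbol, and 21698 of these took their current symbol through Entrez ID from RefSeq (GRCm38.p6, names and gene order only). The brightest probe set stood for each of 19938 genes. Genes were fitted with limma 3.58.1 in R 4.3.3 (lmFit, eBayes with trend), with Benjamini-Hochberg adjustment over all genes and a threshold of 0.05. Alternatives were centring or quantile normalization of the arrays, only genes above the median signal, averaged probe sets, other variance priors, array weights, a replicate block, the two-sample t-test of the methods, each lung left out, and the 2 similar lungs left out or as a block. The fitting procedure was tested on simulated lungs with independent noise, which did not include the resemblance between lungs described above. Plots used Python 3.11.15, pandas 2.3.3 and matplotlib 3.10.9. Genes named are the 6 members, *Tnrc6a*, the 3 genes most like each member, and up to 4 genes of smallest p in each list. Other genes, such as *Cspg4*, *Acta2*, *Kit*, *Plau*, *Fos*, *Egr1*, *Sftpc* and *Nkx2-1*, were added after their values were seen. The members and lists were chosen with earlier results of these data known. Listed genes without a probe set of 1 symbol have no value.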

Additional observations from a re-analysis of the deposited data

How the results depend on the processing

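No PDGF gene was called under any of the 17 alternatives. Among these, the methods' t-test and the limma fit without WT replicate 3 did not call even *Tnrc6a* (adjusted p = 0.551 and 0.0552). The absence of calls in these alternatives therefore says nothing about the PDGF genes. *Pdgfra*, *Pdgfrb*, *Pdgfa* and *Pdgfb* were lower on average under all 17. Among single genes, *Pdgfc* turned to -0.032 without WT replicate 1 (single lungs left out gave -0.032 to 0.158), and *Pdgfd* to 0.14 without *Tnrc6a* null replicate 3 (-0.405 to 0.14) and to 0.05 with both similar lungs left out. The count of PDGF genes at an unadjusted p under 0.05, 1 with all lungs, was 2 after median centring, 3 with array weights, 4 with both similar lungs left out and 4 with these lungs as a block, where 6.92%, 12.3%, 14.5% and 14.9% of all genes passed. It ranged from 1 to 4 with single lungs left out, at 4 without WT replicate 1 (8.68% of all genes) and 2 without *Tnrc6a* null replicate 2. Calls over all genes were 2 with array weights, 0 with the methods' t-test, 23 with both similar lungs left out and 56 with them as a block, and 0 to 1 without single lungs (0 without WT replicate 3). Genes at an unadjusted p under 0.05 numbered 1081, against 2447, 2895 and 2971 with array weights, without both similar lungs and with the block, 1730 without WT replicate 1, 1723 without *Tnrc6a* null replicate 3, 614 without WT replicate 2 and 667 without WT replicate 3.

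In their deviations from the genotype means, same-numbered lungs correlated at -0.295, 0.361 and -0.162. The highest value between genotypes was 0.538, for *Tnrc6a* null replicate 3 and WT replicate 1. Deviations from a mean of 3 lungs depend on each other, so these values cannot decide whether the numbers pair the lungs. With a replicate block 0 PDGF genes were called, 1 was at an unadjusted p under 0.05, and 1 gene was called over all genes.

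Other genes without a call also changed sign. Without *Tnrc6a* null replicate 3 these were *Spry1* (0.015, with a range of -0.30 to 0.015 over single lungs left out), *Gp9* (0.077, range -0.402 to 0.077), *Lyz2* (0.038, range -0.497 to 0.038), *Ctss* (0.037, range -0.492 to 0.037) and *Mir140* (-0.05, range -0.05 to 0.205), and with both similar lungs left out *Jun* (0.01) and *Mir140* (-0.015). *Tgfbi* turned to 0.002 without *Tnrc6a* null replicate 2 (range -0.188 to 0.002), *Pf4* to -0.045 without *Tnrc6a* null replicate 1 (range -0.045 to 0.22), *Itga2b* to -0.067 without WT replicate 1, *Gp9* to 0.028 and 0.073 without WT replicates 2 and 3, and *Mir140* to -0.016 with quantile normalization. The causes were not tested.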
